A study of Homo sapiens with 12 samples.

Results

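The AP-1 and immediate early factors described here are 10 genes: FOS, FOSB, FOSL1, FOSL2, JUN, JUNB, JUND, EGR1, IER2 and MAFF. They were chosen by name. Every probe whose gene symbol in the platform annotation is one of these was taken, and a probe was kept where its detection p was below 0.05 on at least 3 of the 12 arrays. The 10 genes had 12 of the 47319 probes on the array, and 10 of the 12 were kept, 1 for each gene. All 10 factors were therefore among the 12171 genes measured. The other 2 probes, both of MAFF, were each detected on 1 array and did not pass. JUNB passed only through the arrays on which it was high, being detected on all 3 SKNMC NU7441 arrays and on 1 TC32 vehicle array, so its values are descriptive and are not counted as support.

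The arrays were Illumina BeadChips, which read labelled copies of cellular RNA as bead intensities. TC32 and SKNMC are established cell lines of Ewing sarcoma, a tumour of bone and soft tissue that carries a gene fusion joining EWSR1 to a member of the ETS family. The 4 groups were TC32 with 40 µM NU7441, TC32 with 0.1% (v/v) DMSO vehicle, SKNMC with 40 µM NU7441 and SKNMC with 0.1% (v/v) DMSO vehicle, all collected at 48 h, with 3 arrays each. NU7441 inhibits the DNA-dependent protein kinase, an enzyme of DNA break repair encoded by PRKDC. There was 1 dose and 1 time, and no label says whether the 3 samples of a group came from separate cultures.

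AP-1 is a dimer of leucine zipper proteins. JUN, JUNB and JUND pair with each other or with FOS, FOSB, FOSL1 and FOSL2, whereas FOS proteins do not form stable dimers among themselves, and the dimers bind the TPA response element or the related cyclic AMP response element. FOS, FOSB, JUNB, EGR1 and IER2 are classical immediate early genes: serum and growth factors raise their RNA within minutes, without new protein synthesis, through ERK, JNK and p38 kinases, the serum response factor and its ternary complex partners. The RNAs are short-lived, and a return to low levels follows the first pulse even while the stimulus lasts. MAFF is a small MAF protein without a transactivation domain. It pairs with CNC proteins such as NFE2L2 at antioxidant elements and is itself stress-inducible. In Ewing sarcoma, AP-1 sites lie beside many sites of the EWS-FLI1 fusion protein.

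FOSL1 has no entry in the promoter table used, and the other 9 factors have 10 windows, MAFF having 2 annotated starts. The windows shown are the 250 bases before the annotated start, read 5′ to 3′ on the strand of the gene, from RefSeq with the GRCh38.p14 assembly. They are given for JUN, JUND and MAFF, which were higher with NU7441 in SKNMC, for FOS, which was lower there, and for EGR1, which passed in neither line. Capitals mark every match to the motifs searched on both strands: TGANTCA (the TPA response element), TGACNTCA (the cyclic AMP response element and its AP-1 variant), GCGNGGGCG (an EGR1 element), TATAAA and the CArG box of serum response factor. No window of a member had TGANTCA, which 6.57% of all 35116 windows had.
JUN, chr1:58784048-58784297, minus strand: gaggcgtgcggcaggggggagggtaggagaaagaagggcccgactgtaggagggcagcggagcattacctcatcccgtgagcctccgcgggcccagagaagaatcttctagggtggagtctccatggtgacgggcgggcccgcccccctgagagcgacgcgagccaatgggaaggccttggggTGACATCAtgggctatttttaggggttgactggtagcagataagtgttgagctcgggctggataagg
JUND, chr19:18281623-18281872, minus strand: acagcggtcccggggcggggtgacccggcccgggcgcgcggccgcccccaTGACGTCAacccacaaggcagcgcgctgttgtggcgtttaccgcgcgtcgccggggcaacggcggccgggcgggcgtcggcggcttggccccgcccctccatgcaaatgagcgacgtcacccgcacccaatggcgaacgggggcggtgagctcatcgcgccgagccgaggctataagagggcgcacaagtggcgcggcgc
MAFF, chr22:38201744-38201993, plus strand: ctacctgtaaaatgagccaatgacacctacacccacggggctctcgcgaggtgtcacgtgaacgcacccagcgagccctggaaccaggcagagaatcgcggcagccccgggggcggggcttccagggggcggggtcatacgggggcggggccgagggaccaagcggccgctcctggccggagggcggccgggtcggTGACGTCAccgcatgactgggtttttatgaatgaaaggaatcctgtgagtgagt
FOS, chr14:75278578-75278827, plus strand: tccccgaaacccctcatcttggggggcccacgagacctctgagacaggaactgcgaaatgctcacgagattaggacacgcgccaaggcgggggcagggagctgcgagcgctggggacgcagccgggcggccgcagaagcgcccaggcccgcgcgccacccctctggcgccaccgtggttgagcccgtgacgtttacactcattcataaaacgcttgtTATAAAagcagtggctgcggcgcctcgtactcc
EGR1, chr5:138465229-138465478, plus strand: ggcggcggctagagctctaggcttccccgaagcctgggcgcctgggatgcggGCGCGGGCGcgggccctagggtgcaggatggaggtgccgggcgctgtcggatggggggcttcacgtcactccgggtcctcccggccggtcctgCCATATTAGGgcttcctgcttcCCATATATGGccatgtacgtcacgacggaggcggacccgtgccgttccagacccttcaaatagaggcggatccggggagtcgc

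The capitals in the JUN window are TGACATCA, which began 67 bases before the start. In JUND and in the first MAFF window they are TGACGTCA, which began 200 and 54 bases before the start. TGACNTCA was in 3 of the 10 members' windows and in 6.87% of all windows. The JUNB window, not shown, had no match to it, although JUNB also read higher in SKNMC NU7441. The motifs and the windows shown were picked with the values known, so a link between motif and response was not tested. EGR1 had a pair of CArG boxes, beginning 105 and 83 bases before its start, and GCGCGGGCG, beginning 198 bases before it. A CArG box was in 1 of the members' windows and in 1.16% of all, and GCGNGGGCG was in 1 and in 8.41%. FOS, FOSB and JUNB had TATAAA, beginning 33, 30 and 31 bases before the start, as did 10.7% of all windows. The windows lie in GC-rich sequence, with 62% GC in JUN, 74.8% in JUND, 65.6% in MAFF, 64.8% in FOS and 68.4% in EGR1, against a median of 58% over all windows. A match describes the letters in the window and is not evidence that a factor binds there. Sequence farther than 250 bases before the start was not searched, so a motif absent here may lie outside the window.

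The number of probes detected ran from 17944 to 20148 over the arrays, and the mean raw intensity from 158.2 to 199.5. The 3 SKNMC NU7441 arrays were not alike: replicates 2 and 3 correlated at 0.993 with each other across genes, and at 0.959 and 0.958 with replicate 1. The carboxylesterase gene CES1 had a log2 value of 11.96 on replicate 1, and of 4.21 and 4.37 on the other 2 NU7441 arrays, against 11.12 to 11.51 in SKNMC vehicle. RNA28SN5, the 28S ribosomal RNA, had 4.33 on replicate 1, and 12.33 and 12.42 on these same 2 arrays, against 4.17 to 4.50 in SKNMC vehicle. In TC32 NU7441 it stood at 8.26, 9.33 and 12.69, the last on replicate 3, against 4.86 to 5.13 in TC32 vehicle. Of 5 RNAs without a poly(A) tail, 4 were called higher with NU7441 in each line, and 2 in SKNMC without replicates 2 and 3. Called results in SKNMC are therefore given with and without replicates 2 and 3, the fit without them also leaving out TC32 NU7441 replicate 3. The 1 SKNMC NU7441 array left is then assumed to vary like the other groups. All 10 Ewing sarcoma markers listed, CD99 and NKX2-2 among them, were detected on at least 2 arrays of each group, except that SKNMC NU7441 had 9. PAPPA, LIPI and PRKCB were called lower with NU7441 in both lines, STEAP1 in SKNMC, and 0 higher in either. Without SKNMC NU7441 replicates 2 and 3 the SKNMC log2 fold change was -2.58, -1.05, -0.58 and -0.67 for PAPPA, LIPI, PRKCB and STEAP1. The normalized intensity summed over the 10 was 6141 to 6146 in TC32 NU7441 against 6982 to 7490 in TC32 vehicle. In SKNMC it was 7133 to 8099 with NU7441 against 9063 to 9526 with vehicle. The endothelial markers PECAM1, CDH5, VWF and KDR were detected on no array. Of 3 haematopoietic markers with a probe, PTPRC and CD3E were detected on no array. The other, CD14, was detected on at least 2 arrays of each TC32 group and on fewer of each SKNMC group. Of 4 epithelial markers, 1 was detected on at least 2 arrays in TC32 NU7441 and 2 in TC32 vehicle, and 1 in SKNMC NU7441 and 3 in SKNMC vehicle, with CDH1 on no array. The normalized intensity summed over 8 fibroblast markers was 350 to 424 in TC32 NU7441 against 1143 to 1253 in TC32 vehicle, with COL1A2, DCN and LUM detected on no TC32 array. It was 484 to 749 in SKNMC NU7441 against 1712 to 1932 in SKNMC vehicle. The part of RNA make-up or of these markers in the results on the AP-1 factors was not tested.

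With NU7441, MAFF was about 2-fold higher in both lines after background correction, and less without it, and JUND was higher by a smaller amount in both. In SKNMC, FOS was lower and JUN and JUND were higher. EGR1, IER2, FOSB, FOSL1 and FOSL2 did not pass the test in either line. The RNA came from whole cultures, so fewer cells with a transcript and less of it per cell cannot be told apart. Tests were limma's moderated test over all 12171 genes with Benjamini-Hochberg adjustment, and a gene was called where its adjusted p was below 0.05 and its log2 fold change was at least 1 in size. JUNB is left out of the counts and medians of the factors, for the reason given above. By that rule 2 of the other 9 factors were called in SKNMC, FOS lower and MAFF higher, where 9.08% of all genes were called. In TC32, 0 of 9 were called, where 6.47% of all genes were, and 2 of 9 had an unadjusted p under 0.05, against 36.4% of all genes. At an adjusted p below 0.05 alone, 4 of 9 passed in SKNMC, against 31.9% of all genes, and 2 of 9 passed in TC32 against 25.3%. Without the arrays that stood apart 1 of 9 passed in SKNMC, MAFF, against 19.9% of all genes. The median log2 fold change of the 9 was 0.10 in SKNMC and 0.13 in TC32, beside -0.00071 and 0.00089 over all genes. The arrays of the treated and vehicle groups did not overlap for 4 of 9 factors in SKNMC, against 47.7% of all genes, and for 2 of 9 in TC32, against 38.2%. The median size of the change, leaving out its sign, was 0.18 over the 9 factors in SKNMC against 0.30 over all genes, and 0.17 in TC32 against 0.26.

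**Figure D1:**
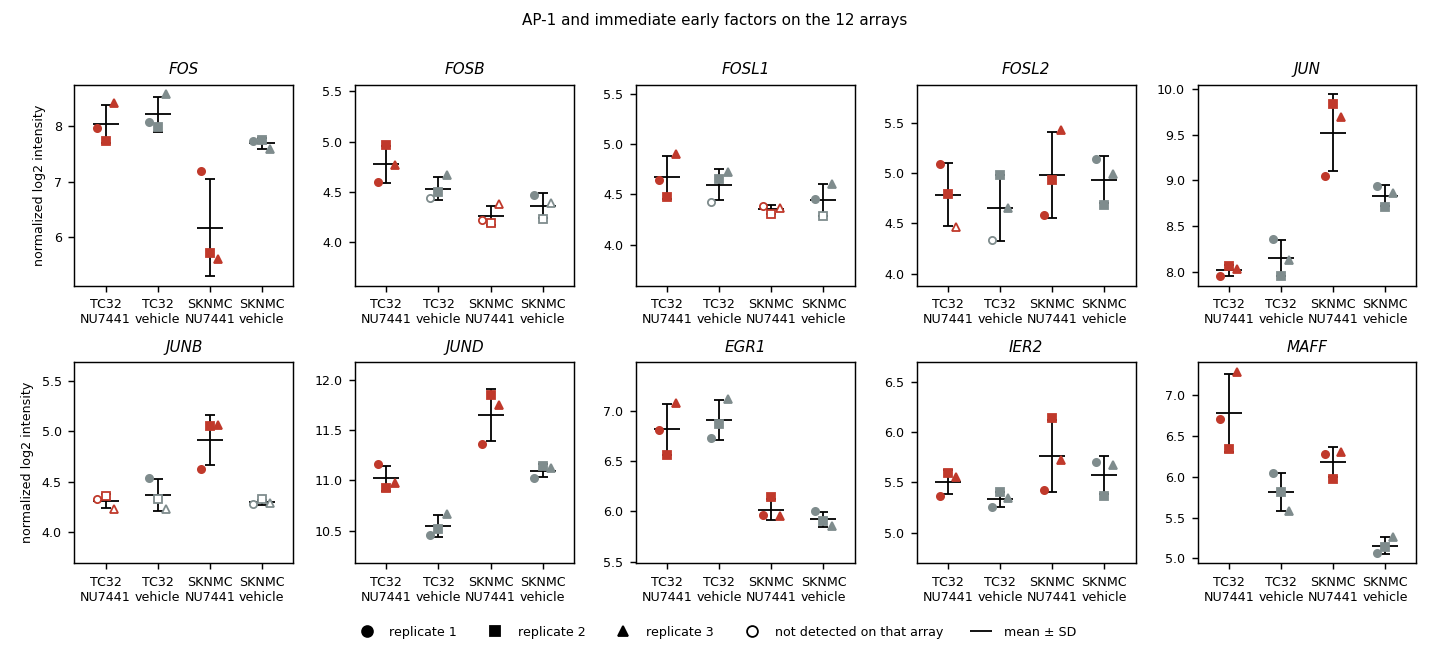
Normalized log2 intensity of each factor (vertical axis, a scale of its own in every panel) on the 12 arrays, by line and treatment along the horizontal axis. Points are arrays, open where the probe was not detected, and bars are the mean and SD of 3 arrays. FOS spreads from 5.61 to 7.19 in SKNMC NU7441, against 7.59 to 7.75 in SKNMC vehicle.

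FOS, the inducible partner of the JUN proteins, was the factor with the largest change. Its log2 value was 7.19, 5.72 and 5.61 on SKNMC NU7441 replicates 1, 2 and 3, against 7.74, 7.75 and 7.59 on SKNMC vehicle. All 3 treated arrays lay below the vehicle arrays, replicate 1 by a small margin and replicates 2 and 3 by a large one. The deposited intensities, before any normalization, had the same order: 208.6, 108.4 and 106.1 with NU7441, against 294, 278.1 and 272.2 with vehicle. This was a log2 fold change of -1.52 ± 0.33 (SE), or 2.86-fold lower, with an adjusted p of 0.00328 in limma. Its SD was 0.88 with NU7441 and 0.09 with vehicle (n = 3 each), so the SE, which pools the 4 groups, sits between unlike spreads.

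FOS was not called without SKNMC NU7441 replicates 2 and 3 and TC32 NU7441 replicate 3: the log2 fold change was then -0.50, with an adjusted p of 0.121 in limma. Without SKNMC NU7441 replicate 1 it was -2.03. In TC32 the FOS arrays overlapped, at 7.98, 7.73 and 8.42 with NU7441 against 8.08, 8.0 and 8.58 with vehicle. The TC32 log2 fold change was -0.18 ± 0.33 (SE), with a 95% interval of -0.88 to 0.53. The SKNMC estimate of -1.52 lay outside it, but the SKNMC interval of -2.22 to -0.81 overlapped it. The SKNMC value of -0.50 without the arrays that stood apart lay inside it. In the deposited intensities the TC32 groups did not overlap, FOS being at 257.4, 269.9 and 295.5 with NU7441, against 364.7, 365.2 and 550 with vehicle. Without between-array normalization the log2 fold change in TC32 was -0.73 (adjusted p = 0.109 in limma), which is -0.48 relative to the median of all genes. Replicate 3 was the highest array in both TC32 groups.

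**Figure D2:**
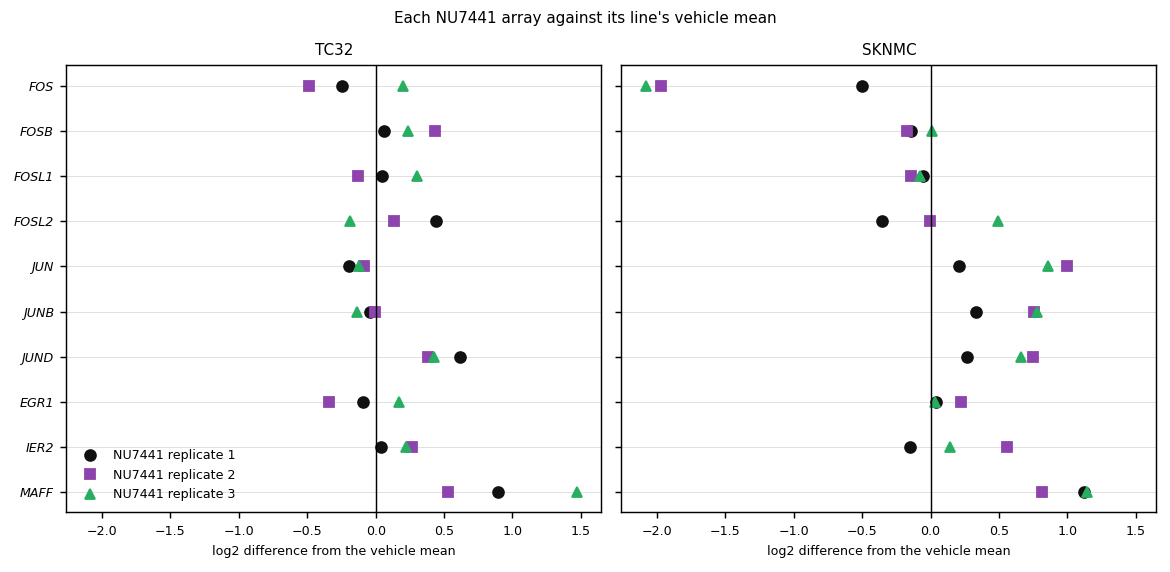
Each NU7441 array's log2 value minus the mean of its line's 3 vehicle arrays, for the 10 factors (rows), in TC32 (left) and SKNMC (right); symbols mark the replicate. In SKNMC, replicates 2 and 3 lie farther from 0 than replicate 1 for FOS, JUN, JUNB and JUND, whereas all 3 arrays lie between 0.82 and 1.14 for MAFF.

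FOSB, FOSL1 and FOSL2 encode the other FOS proteins. All 3 were dim, with group means from 4.26 to 4.98 on the log2 scale, near the lowest detected signal of 4.41 to 4.50 per array. FOSB stood at 4.59, 4.96 and 4.77 in TC32 NU7441, against 4.44, 4.49 and 4.66 in TC32 vehicle, and these arrays overlap. In SKNMC it was detected on no NU7441 array and on 1 vehicle array, so neither group gave a level. FOSL1, the AP-1 subunit of many invasive carcinomas, was detected on all 3 TC32 NU7441 arrays and 2 TC32 vehicle arrays, at 4.64, 4.47 and 4.90 against 4.42, 4.65 and 4.72. It was detected on no SKNMC NU7441 array and on 2 SKNMC vehicle arrays. FOSL2 stood at 5.10, 4.79 and 4.47 in TC32 NU7441, against 4.33, 4.98 and 4.65 in TC32 vehicle. In SKNMC it stood at 4.58, 4.93 and 5.43 with NU7441, against 5.14, 4.68 and 4.99 with vehicle. The arrays of the groups overlap in both lines. The adjusted p in limma was 0.231 or more for each of the 3 genes in TC32 and 0.624 or more in SKNMC, and signals this close to background limit what a change in them could show.

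JUN, the founding JUN protein and the strongest activator of the 3, was higher in SKNMC NU7441. It stood at 9.04, 9.83 and 9.69 on replicates 1, 2 and 3, against 8.94, 8.71 and 8.86 in SKNMC vehicle. Replicate 1 lay just above the vehicle arrays, and replicates 2 and 3 lay well above them. JUN had a log2 fold change of 0.69 ± 0.18 (SE), or 1.61-fold, with an adjusted p of 0.0116 in limma. In the deposited intensities replicate 1, at 583, lay within the vehicle arrays, at 593.8, 481.5 and 561.5, whereas replicates 2 and 3 were at 847.6 and 792.2. Without replicates 2 and 3 and TC32 NU7441 replicate 3 the log2 fold change was 0.21, with an adjusted p of 0.486. JUN also missed the threshold without SKNMC NU7441 replicate 2 (0.53, adjusted p = 0.0659), without SKNMC NU7441 replicate 3 (0.60, adjusted p = 0.0551) and without SKNMC vehicle replicate 2 (0.62, adjusted p = 0.0523), each in limma.

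JUN in TC32 depended on how the arrays were scaled. After quantile normalization it stood at 7.95, 8.07 and 8.03 with NU7441, against 8.36, 7.96 and 8.14 with vehicle, and the groups overlap. There it had a log2 fold change of -0.13 ± 0.18 (SE), with an adjusted p of 0.665 in limma. In the deposited intensities all 3 NU7441 arrays, at 254.5, 324.3 and 242, lay below all 3 vehicle arrays, at 432.8, 358.3 and 414.7. Without between-array normalization the log2 fold change of JUN was -0.68, with an adjusted p of 0.013. The median of all genes then stood at -0.25 in TC32, so JUN was 0.43 below that median (-0.43). In SKNMC that setting moved the median to -0.10 and gave JUN 0.47, or 0.57 relative to the median, with an adjusted p of 0.0801.

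JUNB, which often opposes JUN on growth genes, was detected on all 3 SKNMC NU7441 arrays, at 4.63, 5.05 and 5.07, and on no SKNMC vehicle array, where the probe read 4.27, 4.32 and 4.28. Against the lowest detected signal of the vehicle arrays, JUNB was at least 1.40-fold higher with NU7441. As the gene was measured through these arrays, its test is not counted as support. In TC32 it was detected on 1 vehicle array and on no NU7441 array, and gave no level.

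JUND, the JUN protein present in most resting cells, was higher with NU7441 in both lines. It stood at 11.36, 11.85 and 11.76 in SKNMC NU7441, against 11.02, 11.14 and 11.12 in SKNMC vehicle. The groups do not overlap, and replicate 1 was again the lowest treated array. JUND had a log2 fold change of 0.56 ± 0.15 (SE), or 1.47-fold, with an adjusted p of 0.0104 in limma. Without replicates 2 and 3 and TC32 NU7441 replicate 3 it was 0.26 (adjusted p = 0.328), and without SKNMC NU7441 replicate 2 alone it was 0.46 (adjusted p = 0.0574).

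In TC32, JUND stood at 11.16, 10.93 and 10.98 with NU7441, against 10.46, 10.52 and 10.67 with vehicle, and the groups do not overlap. The log2 fold change was 0.48 ± 0.15 (SE), or 1.39-fold, with an adjusted p of 0.0288 in limma. The deposited intensities of JUND overlapped in TC32, at 2177.2, 2068.8 and 1719.7 with NU7441, against 1724.2, 1809.9 and 2031.7 with vehicle. Without between-array normalization the log2 fold change was 0.10, or 0.35 relative to the median of all genes, with an adjusted p of 0.683. JUND in TC32 also missed the threshold without TC32 NU7441 replicate 1 (0.41, adjusted p = 0.0969), without TC32 vehicle replicate 1 (0.43, adjusted p = 0.0984) and without TC32 vehicle replicate 2 (0.46, adjusted p = 0.0807). In SKNMC the deposited intensities of JUND did not overlap, at 2742.2, 3652.8 and 3716.7 with NU7441, against 2046.1, 2073.7 and 2160 with vehicle.

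EGR1, a zinc finger factor that serum response factor controls through CArG boxes such as those in the window above, stood at 6.81, 6.56 and 7.08 in TC32 NU7441, against 6.73, 6.87 and 7.12 in TC32 vehicle. In SKNMC it stood at 5.96, 6.14 and 5.95 with NU7441, against 6.0, 5.90 and 5.86 with vehicle. The arrays overlap in both lines. The log2 fold change was -0.09 ± 0.15 (SE) in TC32, with a 95% interval of -0.42 to 0.24, and 0.10 ± 0.15 in SKNMC, with an interval of -0.23 to 0.43. A change of 2-fold in either direction lies outside both intervals. The deposited intensities of EGR1 in TC32 did not overlap, at 150.8, 154.7 and 156.9 with NU7441, against 177.2, 197.4 and 230.9 with vehicle. Without between-array normalization its log2 fold change in TC32 was -0.55 (adjusted p = 0.0125 in limma), which is -0.30 relative to the median of all genes.

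IER2, a small nuclear protein of the immediate early class, stood at 5.37, 5.59 and 5.55 in TC32 NU7441, against 5.25, 5.40 and 5.34 in TC32 vehicle. In SKNMC it stood at 5.43, 6.14 and 5.72 with NU7441, against 5.70, 5.36 and 5.67 with vehicle, replicate 2 being the highest. The arrays overlap in both lines. The log2 fold change was 0.17 ± 0.17 (SE) in TC32 and 0.18 ± 0.17 in SKNMC, with adjusted p of 0.521 and 0.451 in limma.

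MAFF was the factor that passed at an adjusted p below 0.05 in both lines under all 26 alternative settings. In SKNMC it stood at 6.28, 5.97 and 6.30 with NU7441, against 5.06, 5.14 and 5.27 with vehicle. The groups do not overlap, and replicate 1 was not apart from replicates 2 and 3. Its log2 fold change was 1.03 ± 0.21 (SE), or 2.04-fold, with an adjusted p of 0.00209 in limma. Without replicates 2 and 3 and TC32 NU7441 replicate 3 it was 1.12, with an adjusted p of 0.00135. It fell just short of the fold minimum without SKNMC vehicle replicate 1 (0.98), without SKNMC NU7441 replicate 1 (0.98) and without SKNMC NU7441 replicate 3 (0.97).

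In TC32, MAFF stood at 6.71, 6.34 and 7.28 with NU7441, against 6.04, 5.81 and 5.58 with vehicle, and the groups do not overlap. Its log2 fold change was 0.97 ± 0.21 (SE), or 1.95-fold, with an adjusted p of 0.00387 in limma, just under the fold that a call needed. The array with the highest value was replicate 3, the one with RNA28SN5 at 12.69, and without it the log2 fold change was 0.71. It was 1.18 without TC32 NU7441 replicate 2, 1.08 without TC32 vehicle replicate 1 and 1.00 without TC32 NU7441 replicate 1, and MAFF was called in these 3 fits. The deposited intensities did not overlap in either line: 144.9, 141 and 171.3 with NU7441 against 131.6, 123.1 and 115.2 with vehicle in TC32, and 141.1, 117.4 and 132.9 with NU7441 against 94.6, 94.3 and 102.6 with vehicle in SKNMC. Without between-array normalization the TC32 value was 0.58, or 0.83 relative to the median of all genes (adjusted p = 0.0229 in limma). The size of the change in MAFF depended on the background step: without background correction it was 0.55 in TC32 and 0.47 in SKNMC, and in the submitters' log2 values it was also 0.55 and 0.47. With the fold minimum, MAFF was called in 3 of 26 alternative settings in TC32 and in 17 of 26 in SKNMC. These values rest on 1 probe, since the other 2 MAFF probes stayed near background.

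**Figure D3:**
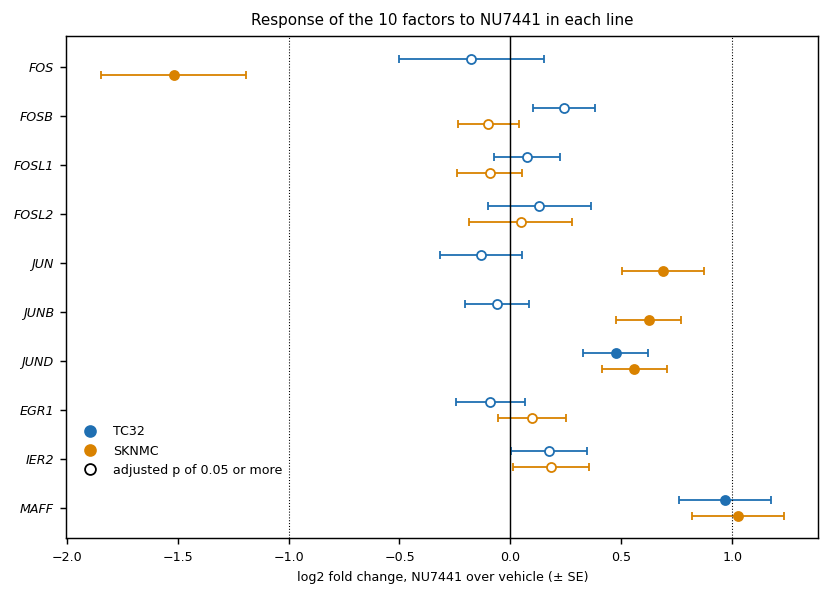
Log2 fold change of NU7441 over vehicle (horizontal axis) for the 10 factors (rows), with TC32 above SKNMC in each row; bars are the SE from limma, open points had an adjusted p of 0.05 or more, and dotted lines mark a log2 fold change of 1 in size. JUNB, measured through its high arrays, is shown as a description, and the fill of its points is not counted as support. MAFF lies at 0.97 in TC32 and 1.03 in SKNMC, and FOS at -0.18 in TC32 and -1.52 in SKNMC.

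The difference between the responses was tested as an interaction, TC32 minus SKNMC. Of the 9 factors 0 were called, where 1.85% of all genes were, and 0 passed at an adjusted p below 0.05 alone, where 2.56% did, although FOS and JUN had an unadjusted p under 0.05, as had 17.4% of all genes. For FOS the difference was 1.34 ± 0.46 (SE), with an adjusted p of 0.145 in limma. For JUN it was -0.82 ± 0.26 (adjusted p = 0.115). These outcomes changed with the setting: of 25 alternatives, FOS was called in 2 and JUN in 4. For JUN the difference was -1.15 without between-array normalization (adjusted p = 0.0311 in limma) and -1.12 with median scaling (adjusted p = 0.0335). Relative to the median of all genes it was -0.97 in both. Without SKNMC NU7441 replicate 1 the difference was 1.85 for FOS (adjusted p = 0.000513) and -1.06 for JUN (adjusted p = 0.00314), and 6.39% of all genes were called. For MAFF the difference was -0.06, with a 95% interval of -0.69 to 0.57, and for JUND it was -0.08, with an interval of -0.53 to 0.36. These intervals leave room for unequal responses of up to about that size in either direction.

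Under vehicle, TC32 was set against SKNMC to compare the starting levels. EGR1 stood at 6.73, 6.87 and 7.12 in TC32, against 6.0, 5.90 and 5.86 in SKNMC, a log2 difference of 0.99 ± 0.15 (SE) with an adjusted p of 0.00049 in limma. The groups do not overlap, and EGR1 passed under each alternative setting run. JUN was lower in TC32, by -0.68 ± 0.18 (adjusted p = 0.0224), as was JUND, by -0.55 ± 0.15 (adjusted p = 0.0211), and MAFF was higher, by 0.65 ± 0.21 (adjusted p = 0.0479). By the rule with the fold minimum 0 of the 9 were called, where 4.26% of all genes were, and 4 of 9 passed at an adjusted p below 0.05 alone, where 14.5% did. Without between-array normalization JUN (-0.51, adjusted p = 0.0899) and JUND (-0.18, adjusted p = 0.518) no longer passed. MAFF no longer passed without background correction (0.28, adjusted p = 0.183) or in the submitters' values (0.27, adjusted p = 0.194), and EGR1 was then 0.58 and 0.57. The vehicle arrays of the lines did not overlap for 5 of 9 factors, against 41% of all genes. EGR1 reached the fold minimum without TC32 vehicle replicate 1 (1.08), TC32 vehicle replicate 2 (1.01) or SKNMC vehicle replicate 1 (1.03). JUN missed the threshold without TC32 vehicle replicate 2 or 3 or SKNMC vehicle replicate 1 or 3, with an adjusted p of 0.0521 to 0.106. JUND missed it without TC32 vehicle replicate 1 or 2 or any 1 of the SKNMC vehicle arrays (adjusted p of 0.0501 to 0.0914). MAFF missed it without TC32 vehicle replicate 1 or 2, TC32 NU7441 replicate 1, SKNMC NU7441 replicate 2 or 3 or any 1 of the SKNMC vehicle arrays (adjusted p of 0.0524 to 0.196). The vehicle arrays also serve the comparisons with NU7441, so these contrasts are not independent.

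Over the 4 groups, FOS averaged 8.04 ± 0.35 in TC32 NU7441, 8.22 ± 0.32 in TC32 vehicle, 6.17 ± 0.88 in SKNMC NU7441 and 7.69 ± 0.09 in SKNMC vehicle (log2, SD, n = 3 here and below). SKNMC NU7441 was the lowest group, and the TC32 groups do not differ beyond their spread. JUN averaged 8.02 ± 0.06 in TC32 NU7441, 8.15 ± 0.20 in TC32 vehicle, 9.52 ± 0.42 in SKNMC NU7441 and 8.83 ± 0.12 in SKNMC vehicle. Both SKNMC groups lay above both TC32 groups, and the TC32 groups lie within their spread. JUND averaged 11.02 ± 0.12 in TC32 NU7441, 10.55 ± 0.11 in TC32 vehicle, 11.66 ± 0.26 in SKNMC NU7441 and 11.10 ± 0.06 in SKNMC vehicle. SKNMC NU7441 was highest and TC32 vehicle lowest, with the other two within their spread. MAFF averaged 6.78 ± 0.47 in TC32 NU7441, 5.81 ± 0.23 in TC32 vehicle, 6.18 ± 0.18 in SKNMC NU7441 and 5.16 ± 0.10 in SKNMC vehicle. Both treated means lay above both vehicle means, but SKNMC NU7441 replicate 2, at 5.97, lay below TC32 vehicle replicate 1, at 6.04. EGR1 averaged 6.82 ± 0.26 in TC32 NU7441, 6.91 ± 0.20 in TC32 vehicle, 6.02 ± 0.11 in SKNMC NU7441 and 5.92 ± 0.07 in SKNMC vehicle, and it separated the lines but not the treatments.

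For FOS, the called factor with the largest change in SKNMC, the 5 genes outside the list with the most similar profile over the 12 arrays were FAT1, TMSB4X, SLAIN1, MAN2A1 and AKR1C3. Likeness was the root mean square difference between mean-centred log2 profiles, which was 0.197, 0.207, 0.215, 0.257 and 0.258 log2 units for these genes, against a root mean square of 0.905 for FOS about its own mean. FAT1 stood at 7.16, 5.78 and 6.05 in SKNMC NU7441, against 7.52, 7.58 and 7.69 in SKNMC vehicle. TMSB4X, an actin-binding peptide gene, stood at 11.54, 9.65 and 9.65, against 12.04, 12.07 and 12.01. In each, replicates 2 and 3 lay below replicate 1, as they did for FOS. These genes were found on the same arrays, so the likeness is a description.

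The leucine zipper partners and competitors of AP-1 fell or did not pass, with CREB1 as the exception. Of the 7 measured of 10 listed, 1 was called lower in TC32 and 3 in SKNMC, and 0 were called higher in either line, although CREB1, the cyclic AMP response factor, passed in SKNMC without the fold minimum (0.76, adjusted p = 0.00825 in limma) but not without the arrays that stood apart (0.55, adjusted p = 0.0972). By the rule with the fold minimum, 2.56% of all genes were called higher and 3.91% lower in TC32, and 3.44% and 5.64% in SKNMC. The median log2 fold change of the 7 was -0.23 in TC32 and -0.51 in SKNMC, beside 0.00089 and -0.00071 over all genes. ATF3, a stress-induced factor that forms dimers with JUN proteins, stood at 5.59, 5.05 and 5.74 in TC32 NU7441, against 7.06, 6.96 and 7.99 in TC32 vehicle. In SKNMC it stood at 6.21, 7.50 and 7.30 with NU7441, against 8.54, 8.74 and 8.63 with vehicle. The groups do not overlap in either line, and here replicate 1 of SKNMC NU7441 was the lowest array of that group.

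ATF3 had a log2 fold change of -1.88 ± 0.32 (SE) in TC32 and -1.63 ± 0.32 in SKNMC, with adjusted p of 0.000841 and 0.00178 in limma, and it was -2.43 in SKNMC without the arrays that stood apart. ATF3 was called in both lines under all 26 alternative settings. JDP2, a repressor that dimerizes with JUN, stood at 4.81, 4.88 and 4.26 in SKNMC NU7441, against 6.07, 5.94 and 6.10 in SKNMC vehicle, and its array of replicate 3 was not above background. Its log2 fold change was -1.39 ± 0.19 in SKNMC (adjusted p = 0.000122), -1.22 there without the arrays that stood apart (adjusted p = 0.000964), and -0.58 ± 0.19 in TC32 (adjusted p = 0.0327). CREB5 fell by 1.02 on the log2 scale in SKNMC (adjusted p = 0.0017). It missed the fold minimum without replicates 2 and 3 and TC32 NU7441 replicate 3 (-0.87), and also without SKNMC NU7441 replicate 2 (-0.94), SKNMC vehicle replicate 1 (-0.96) or SKNMC vehicle replicate 3 (-0.99).

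Of the MAF and CNC partners of MAFF, 6 of 11 listed were measured and 0 were called in either line. At an adjusted p below 0.05 alone 3 passed in SKNMC, where 31.9% of all genes did, and 1 in TC32, where 25.3% did. MAFG, another small MAF, was 0.95 ± 0.19 (SE) on the log2 scale in SKNMC (adjusted p = 0.00216 in limma), 0.74 without the arrays that stood apart (adjusted p = 0.0136), and 0.14 ± 0.19 in TC32 (adjusted p = 0.673). NFE2L2, the activator of antioxidant genes, was -0.14 in SKNMC and 0.08 in TC32 and passed in neither.

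Of 35 other immediate early genes, 26 were measured. In TC32, 3 were called higher and 1 lower, and in SKNMC 3 were called higher and 3 lower, beside shares of all genes called higher or lower of 2.56% and 3.91% in TC32 and 3.44% and 5.64% in SKNMC. Without between-array normalization or with median scaling, 1 was called higher and 2 lower in TC32, and 1 higher and 3 lower in SKNMC. IER3, a stress-response protein of the immediate early class, rose in both lines. It stood at 7.93, 7.68 and 8.33 in TC32 NU7441, against 6.03, 6.17 and 7.42 in TC32 vehicle, and at 8.93, 8.53 and 8.93 in SKNMC NU7441, against 7.87, 7.53 and 7.46 in SKNMC vehicle. Neither pair of groups overlaps. The log2 fold change was 1.44 ± 0.29 (SE) in TC32 (adjusted p = 0.00301 in limma) and 1.18 ± 0.29 in SKNMC (adjusted p = 0.00768), and without replicates 2 and 3 of SKNMC NU7441 it was 1.32 in SKNMC, with an adjusted p of 0.0676, or 0.019 with TC32 NU7441 replicate 3 also left out. Without between-array normalization IER3 was 0.96 in TC32 and 0.94 in SKNMC, just under the fold minimum, with adjusted p of 0.0286 and 0.0363.

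KLF2, a Krüppel-like factor, and GADD45B, a stress sensor, were the other genes of this list called higher in TC32. KLF2 stood at 9.81, 10.06 and 9.33 in TC32 NU7441, against 8.14, 7.93 and 7.74 in TC32 vehicle, and its log2 fold change was 1.80 ± 0.19 (SE, adjusted p = 1.99e-05 in limma). In SKNMC it stood at 8.11, 7.67 and 7.94 with NU7441, against 8.07, 7.79 and 7.87 with vehicle, and the test of the difference between the lines gave 1.80 ± 0.27 (adjusted p = 0.00317). GADD45B had a log2 fold change of 1.20 ± 0.21 in TC32 (adjusted p = 0.000881) and 0.94 ± 0.21 in SKNMC (adjusted p = 0.00346), where it was 0.43 without the arrays that stood apart (adjusted p = 0.124). Without between-array normalization GADD45B was 0.97 in TC32, under the fold minimum.

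The other calls of this list in SKNMC moved with the arrays that stood apart. SGK1, a serum- and glucocorticoid-induced kinase, stood at 10.07, 5.71 and 5.56 on NU7441 replicates 1, 2 and 3, against 9.87, 9.92 and 9.93 with vehicle. Its log2 fold change was -2.80 ± 0.80 (SE, adjusted p = 0.0166 in limma) and 0.16 without replicates 2 and 3. CCN1, a matricellular protein that serum induces, stood at 7.55, 6.34 and 6.21 against 8.11, 8.31 and 8.53, a log2 fold change of -1.62 ± 0.51 (adjusted p = 0.026), and -0.77 without those replicates. RHOB, an immediate early small GTPase, stood at 7.35, 8.11 and 8.47 against 6.70, 6.20 and 6.73, a log2 fold change of 1.44 ± 0.26 (adjusted p = 0.00116), and 0.81 without them. SGK1 also missed the threshold without SKNMC vehicle replicate 2 or SKNMC NU7441 replicate 2 or 3 (adjusted p of 0.0502 to 0.0894), and CCN1 without any 1 of the SKNMC vehicle arrays or SKNMC NU7441 replicate 2 or 3 (adjusted p of 0.0536 to 0.104). IER5L, a relative of IER5, was also called higher (1.03 ± 0.37, adjusted p = 0.0459), and was 0.30 without them. Without those replicates and TC32 NU7441 replicate 3, 1 gene of the list was called higher in SKNMC, IER3, and 2 lower, ATF3, which this list also holds, and PPP1R15A.

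Serum response factor, its ternary complex partners and its coactivators made 6 listed genes, all measured, of which 0 were called. Without the fold minimum 3 passed higher in SKNMC, where 15% of all genes did, and 1 in TC32, where 11.9% did. SRF itself passed in both, with a log2 fold change of 0.53 ± 0.14 (SE) in TC32 (adjusted p = 0.0125 in limma) and 0.41 ± 0.14 in SKNMC (adjusted p = 0.037), or 0.67 without the arrays that stood apart (adjusted p = 0.0109). The EGR1 corepressors NAB1 and NAB2 were measured and 0 of the 2 passed, with log2 fold changes of 0.29 and 0.25 in TC32 and 0.46 and 0.43 in SKNMC.

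Of 22 ERK, JNK and p38 pathway kinases, 19 were measured. In TC32, 0 were called higher and 3 lower, where 2.56% and 3.91% of all genes were, and in SKNMC 1 was called higher and 2 lower, where 3.44% and 5.64% were. Without between-array normalization 4 were called lower in TC32. MAPK3, which encodes ERK1, stood at 7.14, 7.53 and 6.74 in TC32 NU7441, against 8.05, 8.36 and 8.12 in TC32 vehicle, and at 7.35, 7.13 and 6.98 in SKNMC NU7441, against 8.43, 8.21 and 8.18 in SKNMC vehicle. The groups do not overlap in either line. The log2 fold change was -1.04 ± 0.19 (SE) in TC32 (adjusted p = 0.00121 in limma) and -1.12 ± 0.19 in SKNMC (adjusted p = 0.000586), and without replicates 2 and 3 of SKNMC NU7441 and replicate 3 of TC32 NU7441 it was -0.84 in TC32 and -0.93 in SKNMC, under the fold minimum in both. It was also under it in TC32 without TC32 vehicle replicate 2 (-0.95) or TC32 NU7441 replicate 3 (-0.84).

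RPS6KA2, a ribosomal S6 kinase that ERK activates, fell by 1.19 ± 0.28 on the log2 scale in TC32 (SE, adjusted p = 0.00673 in limma) and by 1.11 ± 0.28 in SKNMC (adjusted p = 0.00811), where it was -0.52 without the arrays that stood apart. It was under the fold minimum without TC32 NU7441 replicate 2 in TC32 (-0.93) and without SKNMC NU7441 replicate 2 in SKNMC (-0.90). MAP2K5, the kinase above ERK5, fell by 1.38 ± 0.21 in TC32 (adjusted p = 0.000357). RPS6KA5, which encodes the nuclear kinase MSK1, rose in SKNMC, at 7.07, 7.54 and 7.37 with NU7441, against 5.88, 5.98 and 6.11 with vehicle, a log2 fold change of 1.34 ± 0.17 (adjusted p = 7.5e-05), or 1.08 without the arrays that stood apart. It was 6.47, 6.22 and 6.21 in TC32 NU7441, against 6.24, 6.12 and 6.64 in TC32 vehicle.

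Of 31 genes often cited as AP-1 targets, 18 were measured. MMP9, MMP10, HMOX1 and LAMB3 among them were detected on no NU7441 array of either line. They were measured only through vehicle arrays, so the counts and the median of this list are descriptive and are not counted as support. In TC32, 0 were called higher and 2 lower, and in SKNMC 2 were called higher and 3 lower. Of all genes, 2.56% were called higher and 3.91% lower in TC32, and 3.44% and 5.64% in SKNMC. Of this list, 7 in TC32 and 5 in SKNMC were called lower without between-array normalization, and 6 and 5 with median scaling. At an adjusted p below 0.05 alone, 1 passed higher and 6 lower in TC32, and 2 higher and 10 lower in SKNMC. Of all genes, 11.9% and 13.4% did so in TC32, and 15% and 16.9% in SKNMC. The genes passing lower included MMP9 and MMP10 in TC32, and MMP9, HMOX1 and LAMB3 in SKNMC. The median log2 fold change of the list was -0.41 in TC32 and -0.52 in SKNMC. MMP10, a stromelysin, was detected on no NU7441 array of either line. In TC32 NU7441 it was at background, against 6.49, 6.63 and 5.78 in TC32 vehicle, and was at least 3.54-fold lower with NU7441. It is 1 of the 2 called lower in TC32. As MMP10 was measured only through vehicle arrays, its test against NU7441 is not counted as support. GJA1, the gap junction protein connexin, fell by 1.11 ± 0.22 on the log2 scale in TC32 (SE, adjusted p = 0.00284) and was -0.82 without TC32 NU7441 replicate 3.

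In SKNMC, COL7A1, the collagen of anchoring fibrils, rose on every treated array, at 8.09, 9.58 and 9.61 with NU7441, against 5.14, 5.37 and 5.42 with vehicle. Its log2 fold change was 3.79 ± 0.31 (SE), with an adjusted p of 1.9e-06 in limma, and 2.78 without the arrays that stood apart. TIMP1, a metalloproteinase inhibitor, stood at 8.43, 7.53 and 7.59 against 9.83, 9.70 and 9.45, a log2 fold change of -1.81 ± 0.20 (adjusted p = 3.07e-05), and -1.23 without them. CCN2, a matricellular relative of CCN1, stood at 8.41, 4.58 and 4.68 against 9.48, 9.57 and 9.71, a log2 fold change of -3.70 ± 0.84 (adjusted p = 0.00435), and -1.17 (adjusted p = 0.154) without the arrays that stood apart. CXCL8, the neutrophil chemokine, stood at 5.58, 9.30 and 9.57 against 5.41, 5.37 and 5.40, a log2 fold change of 2.76 ± 0.96 (adjusted p = 0.0398), and 0.19 (adjusted p = 0.91) without them. CXCL8 also missed the threshold without any 1 of the SKNMC vehicle arrays or SKNMC NU7441 replicate 2 or 3 (adjusted p of 0.0928 to 0.17). KRT18, a keratin, was the other gene called lower (-1.18 ± 0.28, adjusted p = 0.00629), and was -0.89 without the arrays that stood apart. Without the arrays that stood apart, 1 gene of this list was called higher in SKNMC, COL7A1, and 1 lower, TIMP1.

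**Figure D4:**
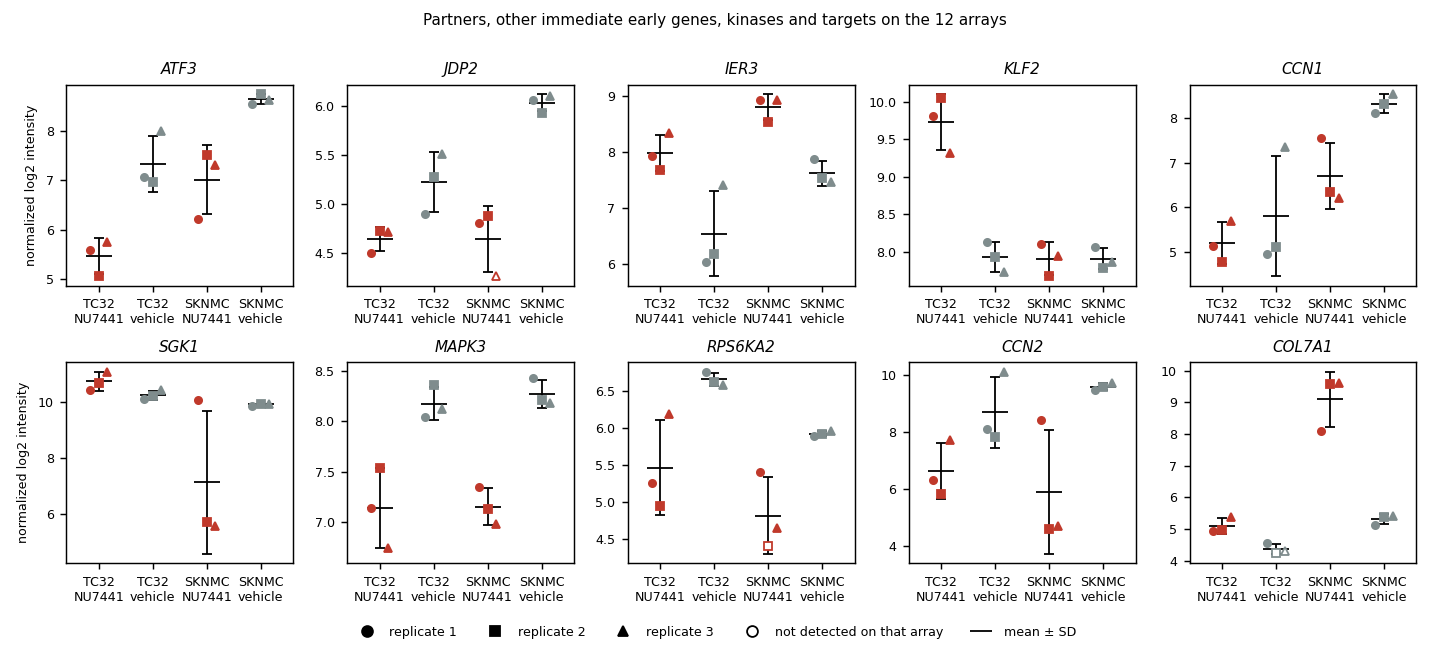
Normalized log2 intensity (vertical axis, a scale of its own in every panel) on the 12 arrays for 10 genes of the partner, immediate early, kinase and target lists, by line and treatment along the horizontal axis. Points are arrays, open where the probe was not detected, and bars are the mean and SD of 3 arrays. ATF3 and MAPK3 are lower with NU7441 on all arrays of both lines, whereas SGK1 and CCN2 in SKNMC NU7441 split between replicate 1 and replicates 2 and 3.

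TC32 and SKNMC differed under vehicle in several of these genes. In TC32, ATF3 was lower than in SKNMC by -1.30 ± 0.32 on the log2 scale (SE, adjusted p = 0.013 in limma), CCN1 by -2.52 ± 0.51 (adjusted p = 0.00373) and IER3 by -1.08 ± 0.29 (adjusted p = 0.024), whereas MMP10 was higher by 1.59 ± 0.19 (adjusted p = 4.05e-05) and TNC, the matrix protein tenascin C, by 1.48 ± 0.17 (adjusted p = 3.27e-05). On TC32 vehicle replicate 3, CCN1 stood at 7.35, CCN2 at 10.11 and CXCL8 at 7.72, against 4.94 and 5.10, 8.09 and 7.83, and 4.25 and 4.21 on the other 2 vehicle arrays. FOS, EGR1, ATF3 and IER3 were also highest on that array among the TC32 vehicle arrays. ATF3 in the contrast of the lines missed the threshold without TC32 vehicle replicate 1 (-1.17, adjusted p = 0.0685), without TC32 vehicle replicate 2 (-1.11, adjusted p = 0.0718) or without SKNMC vehicle replicate 2 (-1.25, adjusted p = 0.0559). IER3 missed it without TC32 vehicle replicate 1 or 2 or any 1 of the SKNMC vehicle arrays (adjusted p of 0.0534 to 0.13).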

How the data were processed

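RNA of the 12 samples was measured on Illumina BeadChips. Groups and replicate numbers came from the sample titles, and columns were matched to samples by name. The mark (2) stands in all 6 vehicle titles and is not explained there, so what it denotes and the treatment cannot be told apart. The spread behind the p-values is that among these samples, and it may be technical.

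Per the file headers, one deposited table gives, for each probe on each array, the bead intensity before normalization and its detection p-value. A further deposited table holds log2 values made by the submitters, in whose processing notes lumi, GenomeStudio and R 3.0.2 are named. What each was used for is not stated there. Fold changes in that table were smaller, the regression slope on the values used here being 0.711 for TC32 and 0.694 for SKNMC over 7650 genes detected on all arrays at p below 0.01, and this table was an alternative.

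For the main values, limma 3.58.1 in R 4.3.3 was run on the intensities in the manner of neqc: normexp, with background estimated through the detection p-values, then an offset of 16, quantile normalization and log2. Quantile normalization hides a shift common to most genes. Probes with a detection p below 0.05 on at least 3 of 12 arrays were kept (21753), and the brightest by its mean stood for a gene. Platform symbols were updated by gene number; 30112 probes had 1 symbol, 8 had several and 17199 had none.

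All arrays entered a limma model with a mean per group, with the moderated test, two-sided, and Benjamini-Hochberg adjustment over 12171 genes. A gene was called at an adjusted p below 0.05 with a log2 fold change of at least 1 in size. SE pools the 4 groups. A group in which no array detected the gene gives a bound, against its own signal or the lowest detected signal of each array, whichever was higher. There were 0 pairs of arrays with identical values and 0 unused sample columns. The fit was tested on simulated data.

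The 10 genes and 13 lists (149 genes, 108 measured) were chosen with earlier results of these data known. Besides the 10 genes, up to 4 called genes per list and contrast with the largest change were named, with the 5 genes most like the called factor of largest change, CES1 and RNA28SN5. CREB1, MAFG, NFE2L2, SRF, NAB1, NAB2, IER5L, KRT18 and PPP1R15A, and the motifs, were chosen after the values were seen. Listed genes without a probe symbol are not analysed here.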

Additional observations from a re-analysis of the deposited data

Results flagged for a closer look

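In 4 genes of the lists tied to the AP-1 factors, and in 0 of the factors themselves, the difference between the lines in the response to NU7441 was called. This is the interaction in limma, by the rule with the fold minimum. For COL7A1 the difference, TC32 minus SKNMC, was -3.06 ± 0.43 (SE) on the log2 scale, with an adjusted p of 0.0024 and responses of 0.72 in TC32 and 3.79 in SKNMC. On TC32 vehicle replicates 2 and 3 COL7A1 was not detected, at 4.26 and 4.30. Its TC32 response therefore starts near background, which leaves the size of the difference uncertain. For KLF2 it was 1.80 ± 0.27 (adjusted p = 0.00317), with a response of 1.80 in TC32 and -0.00093 in SKNMC. For MMP10 the fit gave -1.62 ± 0.26 (adjusted p = 0.00564), but no NU7441 array of either line detected it. Both responses are therefore bounds, at least 3.54-fold lower in TC32 and at least 1.18-fold lower in SKNMC, and no difference between the responses can be read from them. For RPS6KA5 it was -1.37 ± 0.24 (adjusted p = 0.00801), with -0.03 in TC32 and 1.34 in SKNMC. Without SKNMC NU7441 replicates 2 and 3, RPS6KA5 (-1.11, adjusted p = 0.0989) no longer passed.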

How the results depend on the processing

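Counts of members here are over all 10, JUNB included, unless stated. JUNB was measured through its high arrays, so a count that holds it is descriptive. Of the members called in SKNMC (2), 1 was called without between-array normalization, with median scaling, with offset 50, with array weights, and without SKNMC NU7441 replicates 2 and 3, with or without TC32 NU7441 replicate 3 left out too. There were 0 without background correction and 0 in the submitters' log2 values, and 5 with no fold minimum, JUNB among them. With JUNB left out, 4 of 9 passed in SKNMC at an adjusted p below 0.05 alone, against 31.9% of all genes. The fits without SKNMC NU7441 replicates 2 and 3 leave 1 SKNMC NU7441 array, which is assumed to vary like the other groups. The version that keeps TC32 NU7441 replicate 3, and the rule with no fold minimum, were chosen after seeing the data. In TC32, members called were 2 with no fold minimum and 0 with it. For the difference of responses, called members were 1 without between-array normalization, 1 with median scaling and 2 with array weights, and those at an adjusted p below 0.05 were 1, 1 and 3. Between the lines under vehicle, called members were 1 under the first 2 of these and 4 with no fold minimum, and members at an adjusted p below 0.05 were 2 under both.

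Genes called in TC32 (788) were 1406 without between-array normalization, 1306 with median scaling, 248 without background correction, 363 with offset 50, 251 in the submitters' values and 3082 with no fold minimum. In SKNMC (1105) they were 361 without background correction, 515 with offset 50, 348 in the submitters' values, 630 without SKNMC NU7441 replicates 2 and 3 and TC32 NU7441 replicate 3, 557 without the first 2 alone and 3885 with no fold minimum. For the difference (225) they were 58, 85 and 58 under the same 3 settings, 144 with no detection filter, 143 with the strict filter, 945 with array weights, and 384 and 101 without those arrays. Between the lines (518) they were 161, 241, 160 and 1767 with no fold minimum.

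Leaving out 1 array at a time gave 0 to 1 called members in TC32, 1 to 2 in SKNMC, 0 to 2 for the difference and 0 to 1 between the lines. Members at an adjusted p below 0.05 ran from 1 to 2, 3 to 5, 0 to 3 and 1 to 4. Genes called ran from 744 to 889 in TC32, 909 to 1542 in SKNMC, 98 to 778 for the difference and 481 to 606 between the lines. With the replicate block, called members were 0, 2, 0 and 0 and genes called 788, 1112, 190 and 518, and FOS and MAFF were called in SKNMC as before. Deviations of same-numbered samples of a line correlated at -0.06 to 0.06. In TC32 2 of 6 samples, and in SKNMC 4 of 6, correlated best with their own number. The labels do not say whether same-numbered samples were paired, and with 3 samples a group these correlations cannot decide it. Without background correction, MAFF in SKNMC was 0.47 and FOS was -0.97. Without SKNMC NU7441 replicates 2 and 3, SGK1 reversed to 0.16 and RNA28SN5 to -0.033, and with TC32 NU7441 replicate 3 also left out the difference for RNA28SN5 was 3.81. With 1 array left out at a time, SGK1 in SKNMC ran from -4.28 to -2.02, RNA28SN5 from 3.96 to 8.0, and the difference for RNA28SN5 from -2.93 to 1.11. With 3 arrays a group, 48 h and 1 dose, changes at other times or doses were not measured, and FOSB, FOSL1 and JUNB lay near background.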
